A study of Bos taurus with 2 samples.

Results

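Ribosomal protein genes encode the proteins of the cytosolic ribosome, and their DNA methylation was described in bone of cattle. A gene belonged to the set when it was annotated as protein-coding on chromosomes 1 to 29 and its symbol was RPL or RPS followed by a number, without the RPS6K kinases. This rule took 77 of 20280 autosomal protein-coding genes, on 26 chromosomes. They were 39 genes of the large subunit, 29 of the small subunit, 8 paralogs of such genes, and RPS19BP1, which encodes a binding protein of RPS19 and entered by the letters of its symbol only. The rule used names and positions and no methylation value.

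Whole genome bisulfite sequencing (WGBS) reads methylated cytosines as C and unmethylated ones as T after bisulfite treatment. It was applied to 2 samples of bone, both labelled as female Holstein cattle without a treatment, and bone is a mixture of cell types. The labels form 1 group and give no pairing, age or animal identity, so the samples may come from 1 animal or from 2, and every difference between them compares 2 libraries and not conditions. In all, 582241763 calls were counted for sample 1 and 440334436 for sample 2, with 72.4% and 59.0% of the autosomal calls methylated.

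A ribosome holds a single copy of most of its proteins, and cells make these proteins in step with each other. Their genes are classic housekeeping genes, short and with introns, and several carry small nucleolar RNA genes inside their introns. Promoters of such genes usually lie in CpG islands, which are stretches dense in CpG sites that stay unmethylated in most tissues, while gene bodies and the DNA between genes are mostly methylated.

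The annotation at hand gave gene ends but no strand, exon or sequence. The end of each gene with more CpG sites, counted from 1000 bp outside to 500 bp inside it, was therefore taken as the promoter window and is called the CpG-rich end, and the opposite one the CpG-poor end. The choice used no methylation value, and for 74 members the richer end was clear, with at least 1.5 times the CpG sites of the other and more of them also within 250 bp. The median was 77 CpG sites at the CpG-rich and 18 at the CpG-poor end of the members, against 70 and 16 over all genes. A level is the summed methylated calls of a window over all its calls, in percent, and each window printed here held at least 20 calls in each sample unless stated. Members hosted 52 annotated small nucleolar RNA genes, in 23 members or 29.9%, against 1.25% of all genes.

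The CpG-rich ends of ribosomal protein genes were low in methylation in both bone samples. Their median level was 3.39% in sample 1 and 5.92% in sample 2, with a mean of 4.66% ± 1.79 (SD, n = 2), and over all genes it was 11.1% and 16.0%. Levels under 20% in both samples were found for 64 of 77 members, or 83.1%, against 53% of all genes. Among genes with at least 40 CpG sites at that end, the shares were 84.2% of members and 75.4% of all genes. The median number of CpG sites was then 77.5 for members and 89 for all genes. Under 5% in both samples stood 36 members, and under 1% stood 14, while 25.1% and 8.83% of all genes did. At the CpG-poor end the members had a median of 82.1% and 68.4%, with a mean of 75.2% ± 9.70 (SD, n = 2), near the 81.5% and 63.3% of all genes. Sample 1 was thus the higher one there. At the CpG-rich end it was the lower one on summed calls, but not with equal weight to each CpG site (4.62% and 3.56%). Between 605 and 4760 calls in sample 1 and between 382 and 1286 in sample 2 lay behind each CpG-rich end.

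The low methylation was sharpest next to the gene end itself. Within 500 bp to either side, here the inner part, the median over the 77 members was 0.540% in sample 1 and 0.486% in sample 2, against 4.17% and 5.48% over all genes. At this distance 74 members, 96.1%, were under 20% in both samples against 61.1% of all genes, 63 members, 81.8%, were under 5% against 46.9%, and 45 members, 58.4%, were under 1% against 25.3%. The 3 members at or over 20% in a sample were RPL10L, RPS18 and RPL6. In the stretch from 250 bp outside to 500 bp inside, the calls of all 77 members together were 1.52% methylated in both samples, from 104564 and 37878 calls. Without RPL10L, RPL3L and RPS18, left out after their values were seen while RPL6, also partly methylated there, was kept, the 4135 CpG sites of 74 members together gave 0.539% (95% Wilson interval 0.496 to 0.585) of 102294 calls in sample 1. Sample 2 gave 0.422% (0.361 to 0.493) of 36980 calls. Mitochondrial DNA read 0.365% and 0.364% in the same samples. These intervals cover only the counting error of independent calls and no spread over genes or animals. They are too narrow where several reads stem from 1 molecule, without identifiers to tell them apart, or where 1 read calls several CpG sites. The difference from mitochondrial DNA was not tested.

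**Figure D1:**
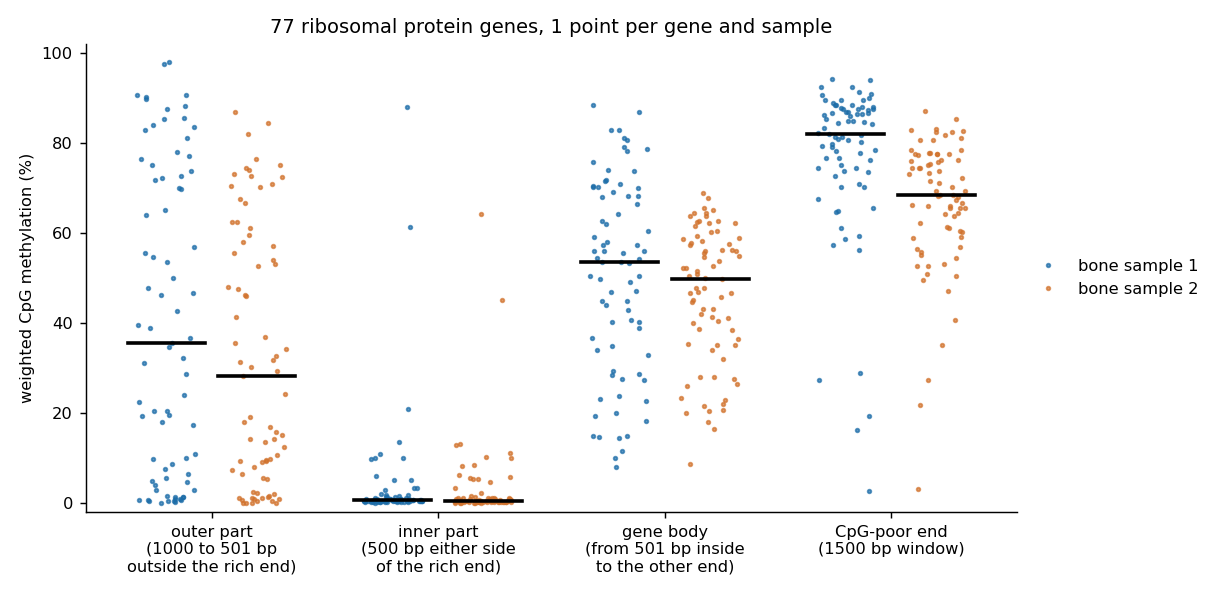
Weighted CpG methylation (percent, vertical axis) of the 77 ribosomal protein genes in the outer and inner part of the CpG-rich end, the gene body and the CpG-poor end. Each point is 1 gene in bone sample 1 (blue) or bone sample 2 (orange), and black bars are medians; the inner part sits near 0 with medians of 0.540% and 0.486%, and the outer part spreads over the whole axis.

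Read in steps of 200 bp away from the gene end, 75 of 77 members, or 97.4%, had a run of levels under 20% that touched it. Over all genes the share was 64.3% in sample 1 and 65.7% in sample 2. A run on 1 side of the end only was counted too, and steps with fewer than 5 calls were passed over. The run of the members was 1600 bp long at the median in sample 1 and 1800 bp in sample 2. The medians of its stretches outside and inside the gene were 600 and 1000 bp in both samples, and the run ranged from 1000 to 3600 bp. Over all genes with a run the median was 1600 bp in both samples, so the members differed in how many had a run and less in how long it was. Followed from CpG site to CpG site on the pooled calls, the run spanned 1510 bp and 86 sites at the median, from 543 bp at RPL38 to 2803 bp at RPS12. A single partly methylated site, 370 bp inside the gene, ended the run of RPL38, which in steps of 200 bp was 1400 bp long in both samples. RPL38 is a large subunit protein tied to the translation of selected messenger RNAs in the embryo, and RPS12 is a small subunit protein. In the coordinates of the deposited counts, the run of RPS12 reached from 70975087 to 70977889 on chromosome 9 and held 0.770% and 1.01% methylated calls.

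**Figure D2:**
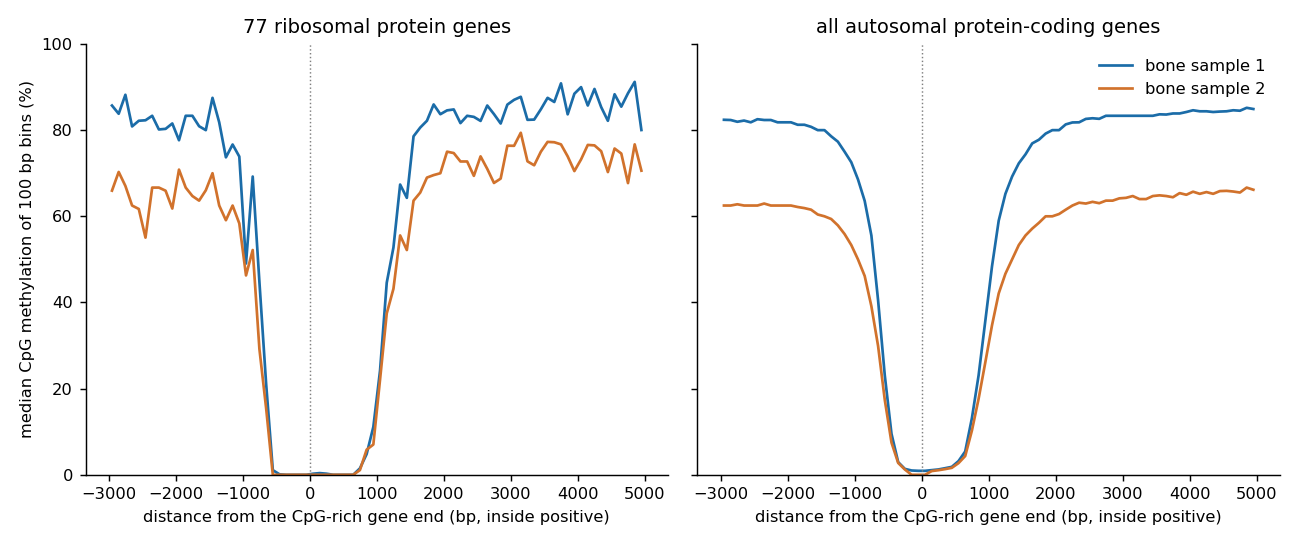
Median CpG methylation of 100 bp bins (percent) against the distance from the CpG-rich gene end in bp, positive inside the gene, for the 77 ribosomal protein genes (left) and all autosomal protein-coding genes (right), with bone sample 1 in blue and sample 2 in orange. In both panels the curve falls to near 0 around the end, and the floor is wider and flatter in the ribosomal protein genes.

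The outer part of the window, 500 to 1000 bp outside the gene end, was where the members differed from each other. Its median was 35.1% in sample 1 and 26.2% in sample 2 over the 74 members with at least 20 calls there in each sample, while from 500 bp outside up to the end it was 0.606% and 0.619%, and over the first 500 bp inside 0.422% and 0.314%. In both samples 25 of these 74 members were over 50% in the outer part (33.8%) and 29 were under 20% (39.2%), beside 42.1% and 29.9% of all genes with at least 20 calls there. At one extreme RPL15, a large subunit protein, had no methylated call there among 91 calls in sample 1 and 184 in sample 2, which allows a level of up to 3.30% and 1.63%. RPL5 had the highest level there in sample 2 and nearly the highest in sample 1, at 97.5% and 86.8%, and RPL17, of the large subunit, read 98% and 70.4%. Apart from RPL10L and RPS18 the members shared a low stretch at the CpG-rich end, and RPS18 was low at its other end. The border of the shared stretch varied both outside the gene, from 200 to 2400 bp away in sample 1, and inside it, from 200 to 2200 bp.

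**Figure D3:**
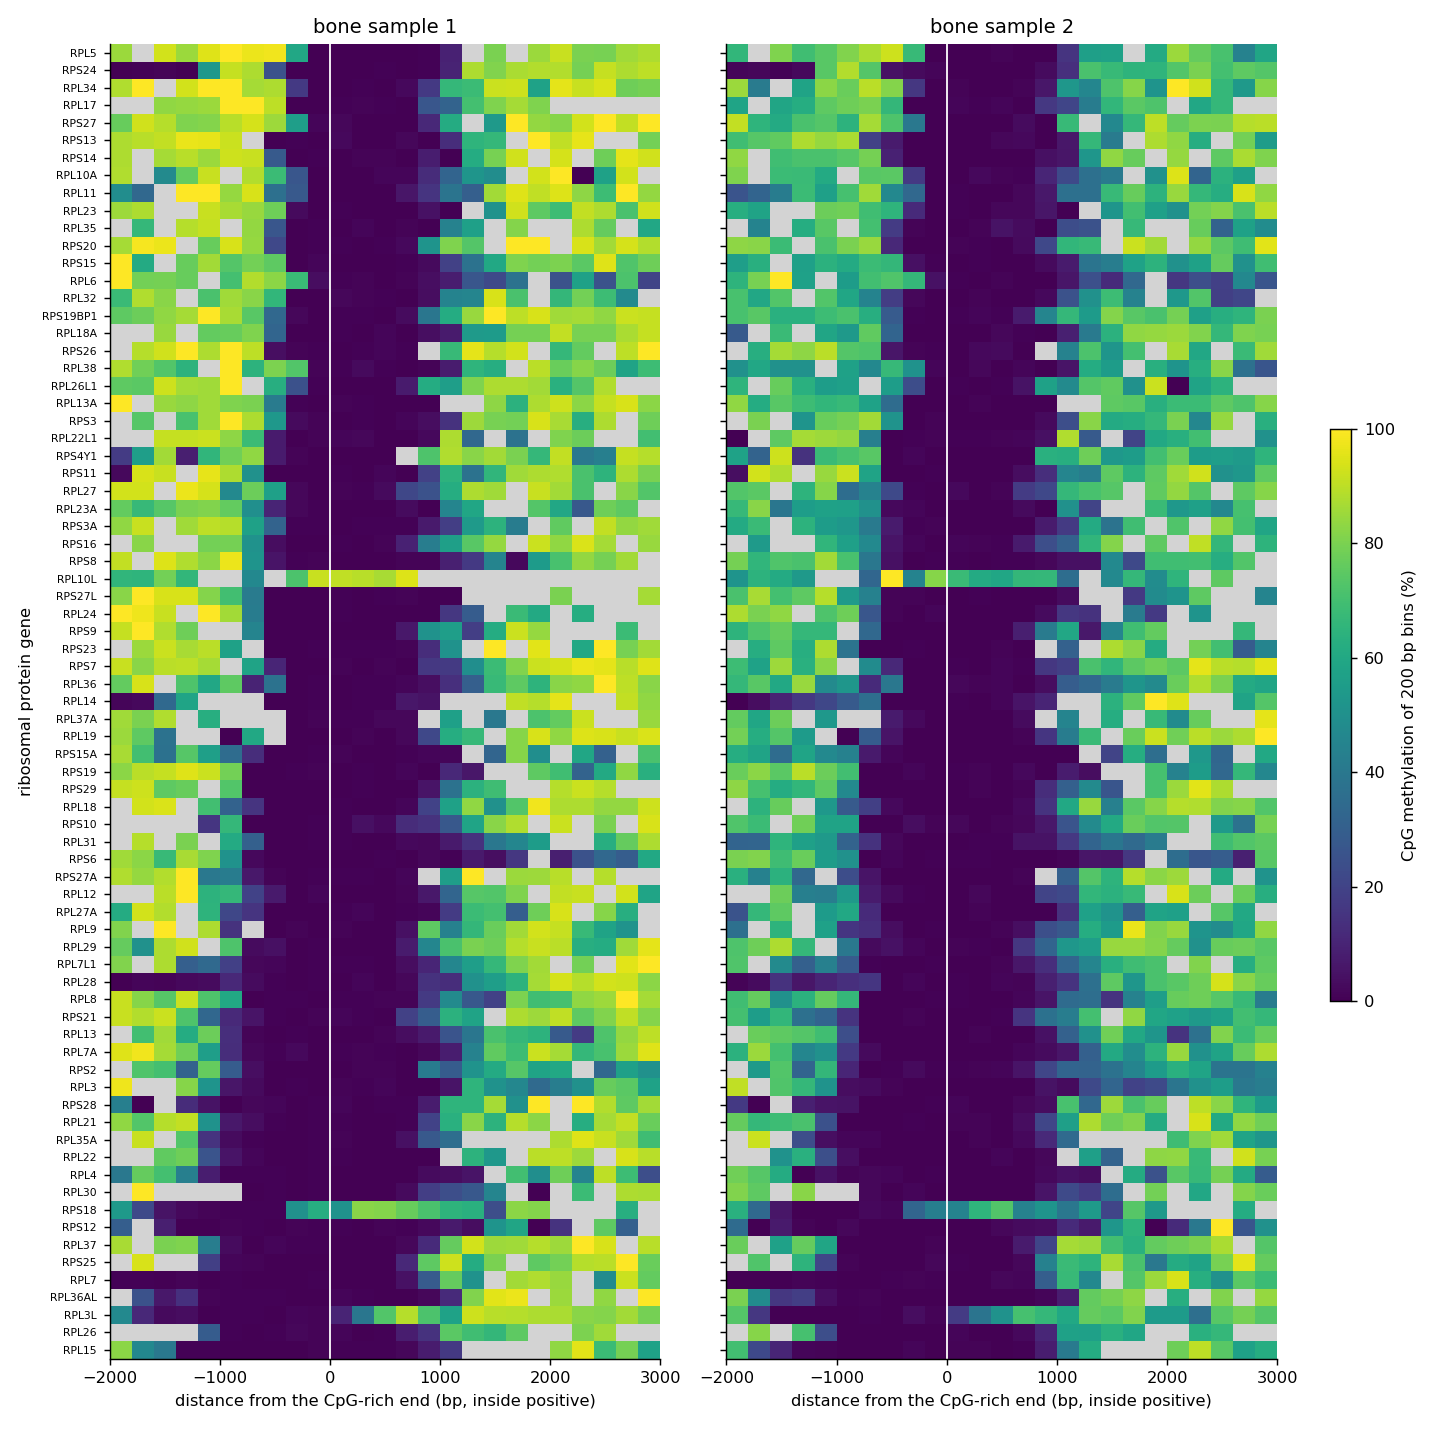
CpG methylation of 200 bp bins (colour, 0 to 100%) from 2000 bp outside to 3000 bp inside the CpG-rich end of the ribosomal protein genes named on the vertical axis, in bone sample 1 (left) and bone sample 2 (right), ordered by the level of the outer part. Grey marks bins with fewer than 5 calls; a dark band crosses the end in most genes, its outer border moves from gene to gene, and RPL10L and RPS18 lack the band at this end.

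The 39 large subunit genes had a median CpG-rich end of 2.35% and 2.95%, and 32 of them were under 20% in both samples. RPL30, RPL7, RPL21 and RPL37, which all encode proteins of the large subunit, were among the 5 lowest members, with the paralog RPL36AL. RPL30 read 0.206% in sample 1 and 0.303% in sample 2, from 973 and 660 calls. RPL7 read 0.295% and 0.501%, RPL21 0.367% and 0.538%, and RPL37 0.680% and 0.243%. These ends were near 0 over the whole window, the outer part included. The unmethylated run of RPL30 reached from 66175570 to 66177355 on chromosome 14, over 82 CpG sites, and held 1.14% and 0.802% methylated calls.

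RPL3, which lies close to the peptidyl transferase centre of the ribosome, was also low, at 1.01% and 0.675%. RPL5 and RPL11 travel together with the small ribosomal RNA of the large subunit and also bind MDM2, the regulator of p53, and both were higher. RPL5 read 10.9% in sample 1 and 29.7% in sample 2, and RPL11 14.9% and 31.2%. Their inner parts were lower, at 2.84% and 8.32% for RPL5 and 9.97% and 11.1% for RPL11, and methylation stood in the outer parts, at 97.5% and 86.8% and at 83.0% and 75.1%. With equal site weights the inner parts read 6.75% and 6.21% for RPL5 and 4.52% and 4.49% for RPL11. In RPL5 the change fell between neighbouring steps of 250 bp, since the step from 500 to 250 bp outside held 97.1% and 88.5% and the step from 250 bp outside to the end had no methylated call among 269 and 219 calls, which allows a level of up to 1.12% and 1.37%.

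RPL13A, a large subunit protein that also takes part in silencing inflammatory messenger RNAs, read 17.2% and 18.7%, with an inner part of 0.540% and 0.171%. RPL32, another large subunit protein, read 41.4% in sample 1 and 14.0% in sample 2. Its outer part held 84.0% and 53.1% and its inner part 0.810% and 0.435%, so the difference between the windows of the samples came with the outer part, where sample 1 had 705 of its 1446 calls on 13 of 76 CpG sites. With equal weight to each CpG site the window of RPL32 read 14.9% and 9.24%. RPL38 (28.3% and 25.6%), RPL6 (25.6% and 16.3%) and RPL27 (24.7% and 9.27%) were the other large subunit genes over 20% in sample 1, and RPL10A with 13.3% and 20.6% was over it in sample 2. All 4 encode structural proteins of that subunit. The window of RPL10A read 16.2% and 12.7% with equal site weights, under 20% in both samples and in the reverse order. The test by site called RPL10A higher in sample 1. RPL6 and RPL27 were also under 20% in both samples with equal site weights, in the same order as on summed calls, and RPL38 stayed over it in sample 1. RPL6 had 76.5% and 61.0% in the outer part, and 20.9% and 8.10% in its inner part. With equal site weights its inner part read 8.40% and 8.76%.

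The 29 small subunit genes had a median of 4.04% and 6.94%, and 25 were under 20% in both samples. RPS6, whose protein is phosphorylated by the S6 kinases, read 4.06% and 3.00%. RPS19, the gene most often mutated in Diamond-Blackfan anaemia in people, read 2.46% and 3.54%, and RPS27A, which is made as a fusion with ubiquitin, 3.39% and 1.85%. RPS3, which sits at the entry of the messenger RNA channel, was higher with 8.52% and 15.5%, and its inner part held 5.15% and 5.45%.

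RPS27 and RPS14 were among the small subunit genes over 20% in both samples. RPS27 read 36.0% and 34.9%, and RPS14, which is known for its loss in a form of myelodysplastic syndrome, 26.5% and 22.4%. As in the large subunit, methylation lay outside: the outer part held 90.8% and 76.5% in RPS27 and 88.1% and 73.2% in RPS14, and the inner part 10% and 5.82% and then 1.46% and 0.445%. Around RPS14 the level fell from 89.4% and 78.4% in the step from 750 to 500 bp outside to 4.66% and 1.89% in the next 250 bp. With equal site weights the window of RPS14 read 11.4% and 8.74%, and in sample 1 the outer part had 556 of 1925 calls on 9 of 74 CpG sites.

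**Figure D4:**
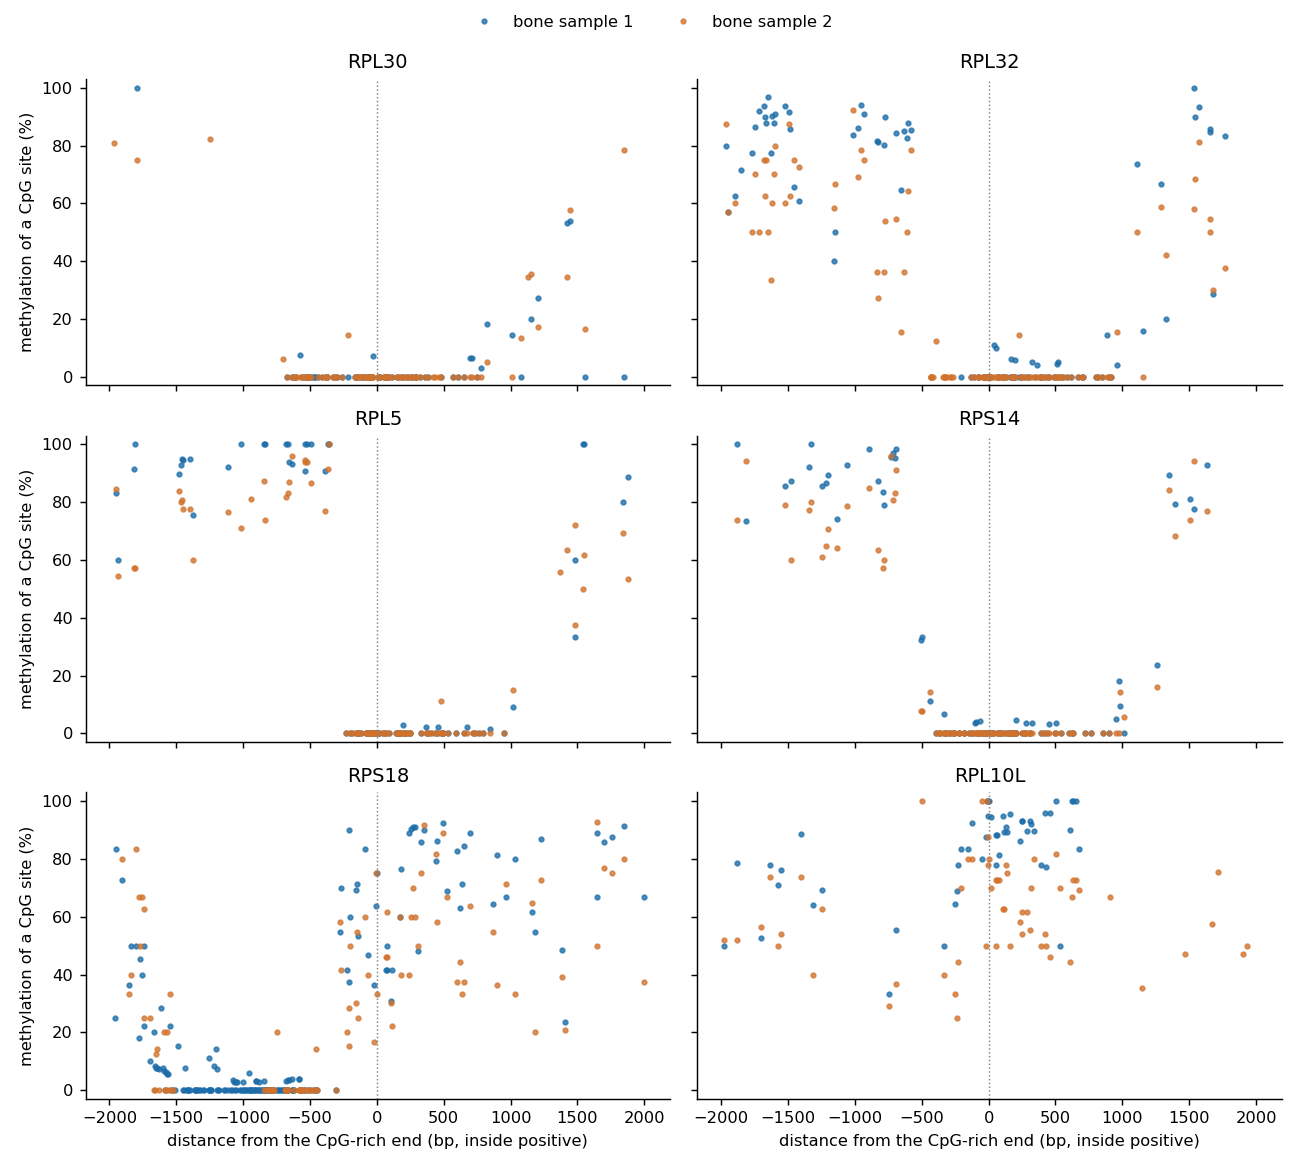
Methylation of single CpG sites (percent, sites with at least 5 calls) against the distance from the CpG-rich end in bp, positive inside the gene, for RPL30, RPL32, RPL5, RPS14, RPS18 and RPL10L, in bone sample 1 (blue) and sample 2 (orange). In the first 4 genes sites near the end are close to 0 and the outer border of that stretch lies at different distances; in RPS18 the low sites lie outside the gene only, and in RPL10L no low stretch appears.

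The 8 paralogs had a median of 2.72% and 9.13%, and 6 were under 20% in both samples. RPL10L is a copy of the X-linked RPL10 that is known from testis, and it had the highest level of all members in both samples. It read 87.1% in sample 1 and 60.7% in sample 2, from 711 and 382 calls, and it had no low run. Its other end read 87.5% and 60.2%, but in so short a gene the windows of both ends overlap, so these are not separate readings. With 770 bp RPL10L was the only member under 1000 bp, and with 37 CpG sites the only one under 40. RPL36AL, a copy of the X-linked RPL36A, read 0.390% and 0.200%, and another gene, MGAT2, ended 167 bp away. RPL7L1 read 1.78% and 2.28%, RPS27L, a target of p53, 2.04% and 8.23%, RPL26L1 2.49% and 10.2%, and RPL22L1 7.41% and 10.02%. These 4 are homologs of RPL7, RPS27, RPL26 and RPL22, and their inner parts lay at or under 1.27% in sample 1 and 4.55% in sample 2, limits set by RPL26L1, whose inner part read 5.21% and 3.08% with equal site weights. The order of the samples also turned with equal site weights in the windows of RPL26L1 (8.95% and 5.93%), RPS27L (4.02% and 3.56%), RPL7L1 (1.88% and 1.83%) and RPL22L1 (11.8% and 9.67%). RPS4Y1, which despite its symbol is annotated on chromosome 23, read 28.3% and 14.2%, with an inner part of 1.17% and 0.198%, and with equal site weights its window read 12.99% and 11.4%. Its outer part, at 65.1% and 52.7%, gave 1638 of the 3862 calls of the window in sample 1 and 184 of 689 in sample 2. Some sites there were unusually deep in sample 1, and the one 674 bp outside had 119 methylated and 32 unmethylated calls. The deepest 0.1% of autosomal sites in sample 1 lay above 120 calls, and the members had 22.9 calls per site in the outer part. The reason for this depth was not tested.

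RPL3L is the paralog of RPL3 known from heart and skeletal muscle. Its CpG-rich end read 2.94% and 6.48%, but the low run covered 1800 bp outside and 200 bp inside the gene, the first 500 bp inside held 24.3% and 33.3%, and the nearest end of another gene, MSRB1, lay 357 bp away. Whether the low stretch belongs to RPL3L or to MSRB1 cannot be told apart. Its other end read 89.5% and 55.0%. RPS18, a small subunit protein, had more CpG sites at the end 469 bp from B3GALT4, where the window read 13.8% and 26.7% and the inner part 61.3% and 45.1%. With equal site weights that window read 19.98% and 15.5%, the reverse order, and the test by site called it higher in sample 1. Its other end, with 68 CpG sites, read 2.71% and 3.07% and was the only CpG-poor end of a member under 20% in both samples, beside 3.27% over all genes. RPS18 and RPS9 were among the 3 members without a clear richer end, and RPS9 read 4.70% and 5.08%. Which end of RPS18 is its promoter was not tested, as the annotation gave no strand. The main counts of low CpG-rich ends take RPS18 at the end near B3GALT4. Of all members, 19 had an end of another protein-coding gene within 1000 bp of the CpG-rich end. These read 1.34% and 1.75% at the median and the remaining 58 read 3.86% and 8.94%. Over all genes the same split gave 2.69% and 4.59% near another gene and 15.1% and 19.3% for the rest.

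Gene bodies of the members were less methylated than those of most genes. From 500 bp inside the CpG-rich end to the other end of the gene, the median was 53.6% in sample 1 and 49.7% in sample 2, with a mean of 51.7% ± 2.76 (SD, n = 2), against 77.3% and 61.1% over all genes. The members were also shorter, with a median length of 3630 bp against 17707 bp. Between 500 and 1000 bp inside, the members read 1.97% and 2.51% and 70 of 76 were under 20% in both samples, while all genes read 16.7% and 15.2% and 50.2% of them were. From 1000 to 2000 bp inside, the members read 65.7% and 54.9% and all genes 71.4% and 54.4%. From 2000 to 4000 bp inside, the 34 members long enough read 82.0% and 71.4%, and all genes 81.0% and 63.1%. Beyond the first 1000 bp the medians of members and of all genes thus came within 10 percentage points.

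The shortest members differed among themselves. RPL10L, of 770 bp, had the highest body of all members in both samples, at 88.4% and 68.9%. That body held only 7 CpG sites with 69 and 74 calls, all of them also in the window of its CpG-poor end. RPS28, of 1133 bp, had a body at 10.1% and 8.72%, and RPS21, of 1261 bp, one at 20.04% and 20.7%, and both encode small subunit proteins. RPL18, of the large subunit, read 79.2% and 65.7%, and RPS24, a small subunit protein whose annotated gene spans 87512 bp, 80.7% and 64.3%. RPL29, a large subunit protein gene of 2176 bp, read 81.1% and 47.8%, RPS6 with 4577 bp 18.2% and 23.4% and RPS12 with 3507 bp 14.5% and 17.9%, so length did not order every body. In 11 members, 14.3%, the body was under 30% in both samples, against 3.86% of all genes.

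The samples differed in the members, and the direction depended on how calls were combined. When the calls of each window were summed and compared by Fisher's exact test (two-sided, Benjamini-Hochberg adjusted p under 0.05 over all genes), 39 of 77 CpG-rich ends differed, 9 higher in sample 1 and 30 higher in sample 2. Over all genes 63.6% differed, 35.9% higher in sample 1 and 27.7% higher in sample 2. When the comparison was made within each CpG site and then combined (Mantel-Haenszel test, adjusted in the same way), 23 differed, 22 of them higher in sample 1 and 1 higher in sample 2. By this test 48.4% of all genes differed, 47% higher in sample 1 and 1.4% in sample 2. Under equal site weights the medians were 4.62% and 3.56%, in the reverse order of the summed calls. Over all genes the medians turned too, from 11.1% and 16.0% on summed calls to 11.1% and 9.12% by site. By site 17 members were higher in sample 2 (22.1%, beside 17.8% of all genes), and on summed calls 51 (66.2%, beside 45.4%). Of the 30 ends called higher in sample 2 on summed calls, 22 were higher in sample 1 by the mean of their sites. The matching share over all genes was not computed.

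The depth within the window also differed between the samples, and its part in the change of direction was not tested. In sample 1 the members had 22.9 calls per CpG site in the outer part and 25.2 over the first 500 bp inside the gene, and in sample 2 they had 11.3 and 8.91. The outer part, with the methylated flank, thus gave 17.04% of the calls of the window in sample 1 and 21.0% in sample 2, for 17.9% of its sites. In the outer part alone both tests gave 1 direction, with 19 of 74 members (25.7%) called on summed calls and 16 (21.6%) by site, each of them higher in sample 1, against 36.6% and 32.1% of all genes, of which 33.3% and 31.1% were higher in sample 1 and 3.28% and 0.987% in sample 2. None was called higher in sample 2, where at an unadjusted p under 0.05 Fisher's exact test had 0 and the test by site 1. In the inner part 11 members were called on summed calls, 4 higher in sample 1 and 7 in sample 2, beside 40.2% of all genes, 30.4% higher in sample 1 and 9.76% in sample 2. By site 4 were called, RPL10A, RPL10L, RPL38 and RPS18, all higher in sample 1, beside 32.2% of all genes, 30.9% higher in sample 1 and 1.34% in sample 2. None was called higher in sample 2 by site, and 1 was higher in sample 2 at an unadjusted p under 0.05.

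**Figure D5:**
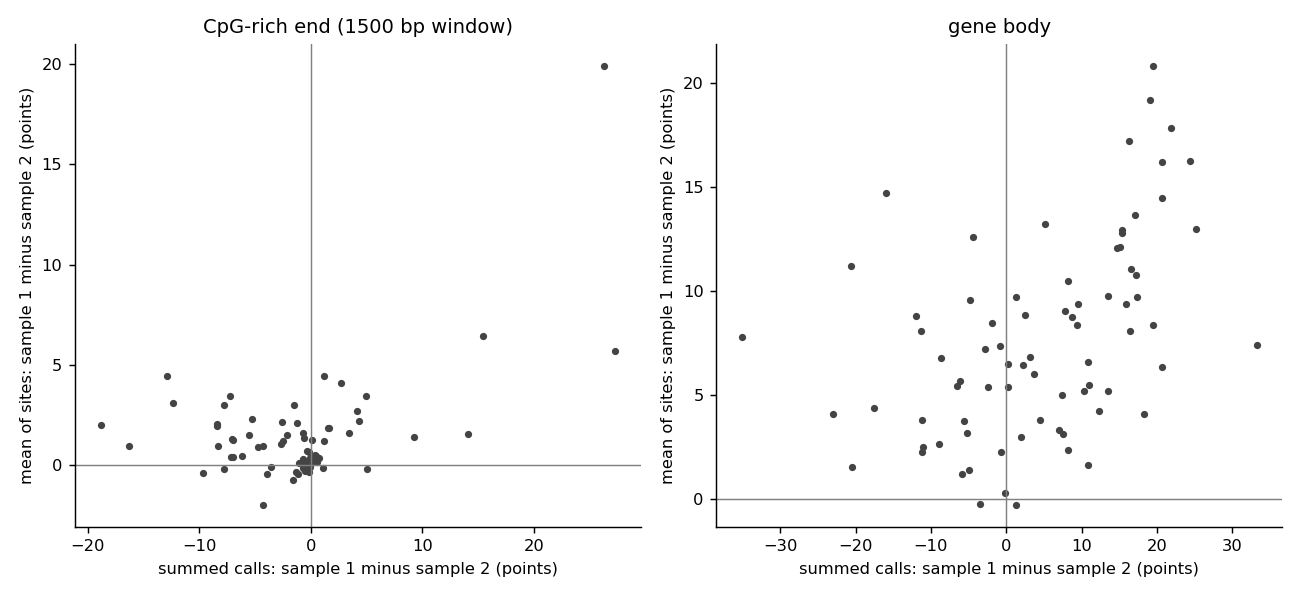
Difference in methylation between bone sample 1 and bone sample 2 (percentage points, above 0 where sample 1 is higher) for the 77 ribosomal protein genes, from summed calls (horizontal) and from the mean of the CpG sites (vertical), at the CpG-rich end (left) and in the gene body (right). Points above 0 on the vertical and below 0 on the horizontal axis are higher in sample 2 by summed calls and higher in sample 1 by site. By site, 17 CpG-rich ends (22.1%) and 2 bodies (2.60%) are higher in sample 2, beside 17.8% and 1.80% of all genes.

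Among the ends called by both tests, RPL10L had the largest difference of site means, with 83.2% in sample 1 and 63.3% in sample 2. RPL27 followed with 14.95% and 8.52%, and RPL32 with 14.9% and 9.24%. RPL5 showed the change of direction, since its summed calls gave 10.9% and 29.7% (adjusted p = 8.65e-26, Fisher's exact test) and its site means 19.9% and 17.95%, a difference that passed the test by site. RPL11 was higher in sample 2 on summed calls (adjusted p = 1.62e-15, Fisher's exact test), while its site means of 12.97% and 11.996% did not pass the test by site.

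In bodies sample 1 was the higher one in most members either way. Fisher's exact test called 58 of 77 bodies, 39 higher in sample 1 and 19 in sample 2, beside 91.8% of all genes, of which 85.2% were higher in sample 1 and 6.56% in sample 2. By site 64 bodies differed, each of them higher in sample 1, beside 94.4% of all genes, and 0 were higher in sample 2, also at an unadjusted p under 0.05, beside 94.1% and 0.333% of all genes in these directions. All 19 bodies called higher in sample 2 on summed calls were higher in sample 1 by the mean of their sites, and the matching share over all genes was not computed. Whatever the test, 28 bodies (36.4%) were higher in sample 2 on summed calls, beside 9.73% of all genes. By site 2 bodies (2.60%) were, beside 1.80% of all genes. The median difference of site means, sample 1 minus sample 2, was 7.19 percentage points over the members and 14.0 over all genes.

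RPS23, a small subunit protein of the decoding centre, had the largest difference of summed calls, with 8.05% in sample 1 and 43.1% in sample 2 (adjusted p = 1.24e-30, Fisher's exact test), but its site means were 29.5% and 21.8%. RPL21 likewise read 44.8% and 67.7% on summed calls and 62.1% and 58.0% by site. RPL3 kept its direction, with 66.4% and 41.9% on summed calls and 63.9% and 47.7% by site, and so did RPL29, with 81.1% and 47.8% and then 69.4% and 62.0%. RPS2, a small subunit protein, read 53.2% and 28.1% on summed calls and 42.9% and 29.9% by site. Ordered by site means instead, the largest body differences were those of RPL10L (89.0% and 68.2%), RPL3L (83.8% and 64.7%), RPS4Y1 (83.4% and 65.5%) and RPS24 (81.3% and 64.1%).

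Other genes of translation were also low at the CpG-rich end. The 78 mitochondrial ribosomal protein genes had medians of 2.48% and 5.51%, with 83.3% under 20% in both samples, and 62 translation initiation and elongation factor genes 2.80% and 5.89%, with 83.9%. Ribosomal protein genes with other symbols (RPLP0, RPLP1 and RPLP2 of the stalk, RPSA and FAU among them) had medians of 3.38% and 3.97%, and all 6 were under 20%. Bodies of the mitochondrial ribosomal protein genes, of 7060 bp at the median, read 79.2% and 66.6%. Those of the translation factor genes, of 18014.5 bp, read 77.6% and 66.2%. The 6 genes with other symbols were shorter than the members, with 2267 bp at the median, and their bodies read higher than those of the members, at 68.9% and 51.6%. The relatives of members on the X chromosome read higher: RPL10 35.6% and 24.4%, RPL36A 32.8% and 19.6%, RPL39 27.4% and 14.3%, and RPS4X 31.7% and 28.2%. The pseudogene RPL15P, an untranslated copy of RPL15, read 94.99% and 92.3% over its length.

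Marker genes of single cell types were used to check the tissue label. An end under 20% in both samples was found in 2 of 7 osteoblast markers, 1 of 6 white blood cell markers, 0 of 4 fat cell markers and 0 of 5 liver markers. Over all genes it was found in 10820 of 20280, a larger share than in any of the 4 marker lists, so low ends of these markers did not single out a tissue. The part of the cell mixture in the members' levels was not tested.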

How the data were processed

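WGBS was made from 2 bone samples. Trimmed reads were aligned by Bismark, duplicate reads were taken out, and the authors deposited counts of methylated and unmethylated calls for each CpG cytosine. The submitters' processing notes name Trim Galore 0.4.5, Bismark 0.19.0, Bowtie2 and ARS-UCD1.2; the article names the build UMD3.1.1 and other versions, and the deposited counts name no build. No column of another sample was present.

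Both strands were merged into CpG sites. Genes were taken from the RefSeq table of ARS-UCD2.0, which gave symbols and gene ends. Its fit was checked: when each of the 29 autosomes was cut into 3 pieces, in all 87 pieces the 100 bp bin densest in CpG sites lay between 100 bp outside and 400 bp inside annotated gene ends. Small shifts of single genes between builds cannot be seen this way, and no coordinate of that table is printed. The table gave no strand, exons or sequences, so genes without introns could not be set apart as planned, and start sites were replaced by CpG-rich ends. Bodies needed a gene of at least 750 bp.

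Windows with at least 20 calls in each sample were tested by two-sided Fisher's exact test with Benjamini-Hochberg adjustment over all genes. On data simulated with 1 level a window this test worked, but where single sites differed in level it also made calls in windows that were unchanged. In the simulation a Mantel-Haenszel test stratified by CpG site did not do so beyond its threshold. Unchanged windows had the same site levels in both simulated samples, which is the case this test assumes, so its result there was set by the design. No difference between whole libraries was simulated. The simulated sites were drawn independently, so this could not show how either test behaves where 1 read calls several sites. The second test was added after seeing the data and stands in the report beside the counts from Fisher's exact test. Calls on 1 read are not independent, so p-values are too small. Intervals are 95% Wilson intervals, and after a count of 0 the limit is 3 calls of the total.

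Members and lists were chosen with earlier results of these data known. Genes were named by a rule: paralogs, a set of 10 well-known members, the 5 highest and 5 lowest CpG-rich ends, and the 5 largest differences for ends and for bodies. Other members were named after their values were seen. Some genes the rule takes are counted but not reported by name here. Python 3.11.15, numpy 2.4.6, scipy 1.17.1 and pandas 2.3.3 were used.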

Additional observations from a re-analysis of the deposited data

How the results depend on the processing

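The median CpG-rich end of 4.66% stayed within 1 SD of the samples (1.79, n = 2) under the call minimums, the site filters and equal site weights. The same held for the choices of end and members added after seeing the data. Members without another gene within 1000 bp of the end gave 6.40%, which is above the level of either sample. The count of 64 of 77 members under 20% was 64 or 65 under the call minimums, the site filters and the other choice of end. It was 74 with 500 bp to either side. In smaller sets it was 62 of 74 members with a clear end, 48 of 58 without another gene near and 63 of 76 without RPS19BP1. The median end fell to 0.513% with 500 bp to either side, a window without the outer part. The median body of 51.7% fell to 33.6% over the whole gene, which adds the unmethylated end. With 1 sample left out, the medians ranged from 3.39% to 5.92% for ends and from 49.7% to 53.6% for bodies. The 39 ends that differed became 2 with at least 20 percentage points (15.3% of all genes), 11 by a quasi-binomial test over sites (35.3%), 11 with 500 bp to either side (40.2%) and 23 when stratified by CpG site (48.4%), where the direction turned. The 58 bodies became 11 with at least 20 percentage points (16.5% of all genes) and 26 by the quasi-binomial test (81.3%). Over whole genes 59 differed (91% of all genes), 25 higher in sample 1 and 34 in sample 2, in place of 39 and 19; stratified by CpG site, 64 differed over whole genes (95.4%), all higher in sample 1. Against the autosomal odds ratio 53 ends differed (61.1% of all genes), 4 above and 49 below that ratio, and 58 bodies (78.4%), 14 above and 44 below it. No paired analysis was possible because both libraries belong to 1 group. Single-exon copies could not be separated, so their planned results were not run. At 9.64 calls per CpG site in sample 2, levels under 1% rest on few methylated calls a gene.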
